A study of Rattus norvegicus with 4 samples.

Results

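The 10 genes described here encode neuronal calcium-binding proteins built on the EF hand: Calb2, Pvalb, Ocm, Scgn, Cabp1, Vsnl1, Hpcal4, Ncald, Calm2 and Calm3. They were chosen by symbol: every probe whose single gene symbol in the array's annotation was 1 of these 10 was taken. They are 10 of the 12111 genes that the annotation names by such probes, and had 20 probes, of which 19 were read, out of 35126 on the array. Vestibular ganglion neurons of the rat were cut out by laser capture under calretinin immunofluorescence, and their total RNA, pooled, was hybridised to 1-colour (Cy5) arrays. Of the 4 arrays, 2 are titled calretinin-positive, which the series' design text equates with calyx-forming afferents, and 2 calretinin-negative, equated with dimorphic and bouton afferents. The groups follow the titles, because the descriptions give the same wording, positive cells, for all 4 samples. They are called the positive and the negative arrays below, meaning the libraries labelled so. The sources used here do not give strain, sex, age or the number of animals per pool. Nothing says that replicates came from separate animals, so a p-value measures the spread between these arrays, which may be technical.

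An EF hand is a helix-loop-helix motif whose loop holds a calcium ion. Buffers such as calretinin and the parvalbumins bind calcium and shape how far and how long a calcium signal spreads, whereas sensors such as calmodulin and the visinin-like proteins change shape on binding calcium and act on target proteins. In the vestibular periphery, calretinin is the classical marker of afferents that form only calyces around type I hair cells. Because the cells were selected on this protein, Calb2, the gene that encodes it, serves here as a check of the titles and not as a result.

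Of the 10 genes, 6 had an entry in the RefSeq promoter table (build GRCr8). Of the genes that passed the test between the groups, Cabp1, which was higher in the positive arrays, and Ocm, Vsnl1 and Hpcal4, which were lower, are represented by the 150 bases before the transcription start (for Cabp1, the first of its pair of listed starts). They are shown so that the higher gene can be set beside the lower ones. Capitals mark the GC box letters GGGCGG on either strand.
Cabp1, chr12:47085142-47085291, plus strand: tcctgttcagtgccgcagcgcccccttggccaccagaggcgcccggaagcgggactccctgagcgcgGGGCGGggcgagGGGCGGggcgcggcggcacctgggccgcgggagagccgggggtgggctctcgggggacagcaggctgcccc
Ocm, chr12:15700476-15700625, plus strand: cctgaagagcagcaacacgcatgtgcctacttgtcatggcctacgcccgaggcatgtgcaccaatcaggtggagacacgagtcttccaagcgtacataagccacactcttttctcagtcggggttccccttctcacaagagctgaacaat
Vsnl1, chr6:39878557-39878706, minus strand: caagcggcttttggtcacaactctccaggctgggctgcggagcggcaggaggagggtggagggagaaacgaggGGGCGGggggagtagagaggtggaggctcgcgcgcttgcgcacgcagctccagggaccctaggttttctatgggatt
Hpcal4, chr5:140739758-140739907, plus strand: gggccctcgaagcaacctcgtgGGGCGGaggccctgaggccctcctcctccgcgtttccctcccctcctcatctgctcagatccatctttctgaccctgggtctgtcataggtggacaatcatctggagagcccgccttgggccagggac
The Cabp1 window held 2 matches to GGGCGG, the Vsnl1 and Hpcal4 windows 1 each, and the Ocm window 0. The window before the other Cabp1 start (chr12:47093769-47093918), not printed, held 0. Of all 33469 promoters in the table, 26.0% hold this motif on either strand in a window of the same length. The TATA box letters TATAAA (8.0% of all windows) and the cAMP response element TGACGTCA (1.36%) were searched on both strands and matched in none of these windows. The matches are a description of the letters, and the arrays hold no measurement of binding at them.

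Each value is the intensity of a probe, not log-transformed, and the array medians lay between 0.990 and 0.992, so an intensity of 1 is about the level of the median probe. Probe names and values were not aligned over the whole table. Names of probes up to and including the fourth of 8 control rows (early) fitted the values at their own position. Names from the fifth control row on (late) fitted the values 5 array positions later, with 112 positions to an ID row. Probes repeated in the control rows give this directly. Each early control row was compared with 1 other early one, so both rows of such a pair share the same r. In each of the 4 early control rows the repeats correlated best at their own position (Pearson r across 14 probes, 0.992 or 0.999). In each of the 4 late ones they did so 5 positions later (r 0.996 to 0.9996), against -0.23 to 0.40 at their own. Abundant gene families, meaning ribosomal, proteasome and respiratory chain subunits, had a mean log2 intensity of 2.88 at early IDs (89 probes) and of 3.40 at late IDs read 5 positions later (88 probes), against 0.98 at the late IDs themselves and 0.20 for all probes. Names between the parts were not used here, which left out 1 of the 2 Cabp1 probes.

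**Figure D1:**
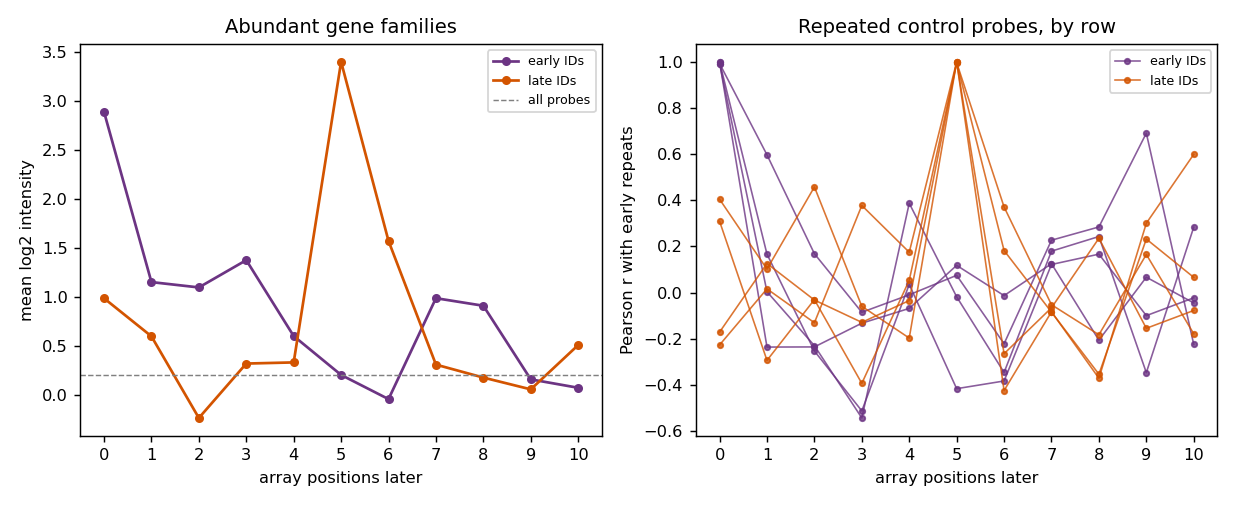
Left, mean log2 intensity of abundant gene families read 0 to 10 array positions after the probe ID, for early and late IDs, with the mean of all probes as a dashed line; right, Pearson correlation of repeated control probes with their early repeats at the same shifts, 1 line per control row. Early IDs peak at 0 positions and late IDs at 5 positions in both panels.

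Member values were read 5 table rows later in the late part. This is the same as 5 array positions wherever no ID is missing between, which held for 13 of the 14 late member probes. The exception is Calm3 probe 232107, which is given in both readings. Of the late member probes, 3 lie in ID row 320, past the last control row, 308. Beyond that row, 86 probes with a repeat of the same database sequence elsewhere correlated with it at r = 0.11 when read 5 positions later, and the highest r, 0.34, came at 9 positions (85 probes). The set of positions that hold a probe in the sparsely filled last ID row of the array nevertheless matched its early counterpart at 5 positions, with 40 of 51 positions shared against 14 with no shift. Over the shared positions, Pearson r was 0.89 at 5 positions and -0.32 with no shift. That is row 328, not row 320 of the members. The names of these 3 probes, 1 of Vsnl1 and 2 of Calm3, are therefore less firmly placed than the other members.

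Of the 19 probes read, 14 reached the limit for testing, a mean log2 intensity above the 40th percentile (an intensity of 0.456), and 5 were too dim. With limma and Benjamini-Hochberg adjustment over the 21070 tested probes, 3 member probes were higher in the positive arrays, 6 were lower and 5 did not pass an adjusted p of 0.05. Of the 6, Ncald probe 136112 passed the filter only through the negative arrays, where it is high. Over the whole array 64.2% of tested probes passed, 40.6% higher and 23.6% lower, so that a call is the common outcome in this comparison. The groups did not overlap for 13 of the 14 tested member probes, where 81.7% of all tested probes showed no overlap. Taken by its brightest probe, each of 3 genes was higher (Calb2, Cabp1 and Calm2), 4 were lower (Ocm, Vsnl1, Hpcal4 and Ncald) and 3 did not pass (Pvalb, Scgn and Calm3). Among all named genes taken in the same way, 66.6% passed, 45.1% higher and 21.5% lower. The median log2 change was 0.08 over the 10 genes and 0.11 over all tested probes.

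The scale matters for small changes. As deposited, the median log2 change of tested probes was 0.11, and 0.23 among the 5066 with a mean log2 above 4. With quantile normalization the median of tested probes was 0.01, and with cyclic loess it was -0.01. Of all calls, 63.3% were higher as deposited, 53.5% with quantile and 49.6% with loess normalization. Quantile normalization called 61.7% of tested probes (33.0% higher, 28.7% lower) and loess 63.9% (31.7% higher, 32.2% lower). Beside these shares, with either, 2 member genes were higher (Calb2 and Cabp1) and 5 lower (Pvalb joined the 4 above), and Calm2 did not pass. The 4 arrays allow no permutation p below 0.333, and the main test pools variance across probes. When each probe was tested on its own spread, 33.6% of all tested probes passed, and Calb2 and Cabp1 were the 2 of 10 member genes that did.

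**Figure D2:**
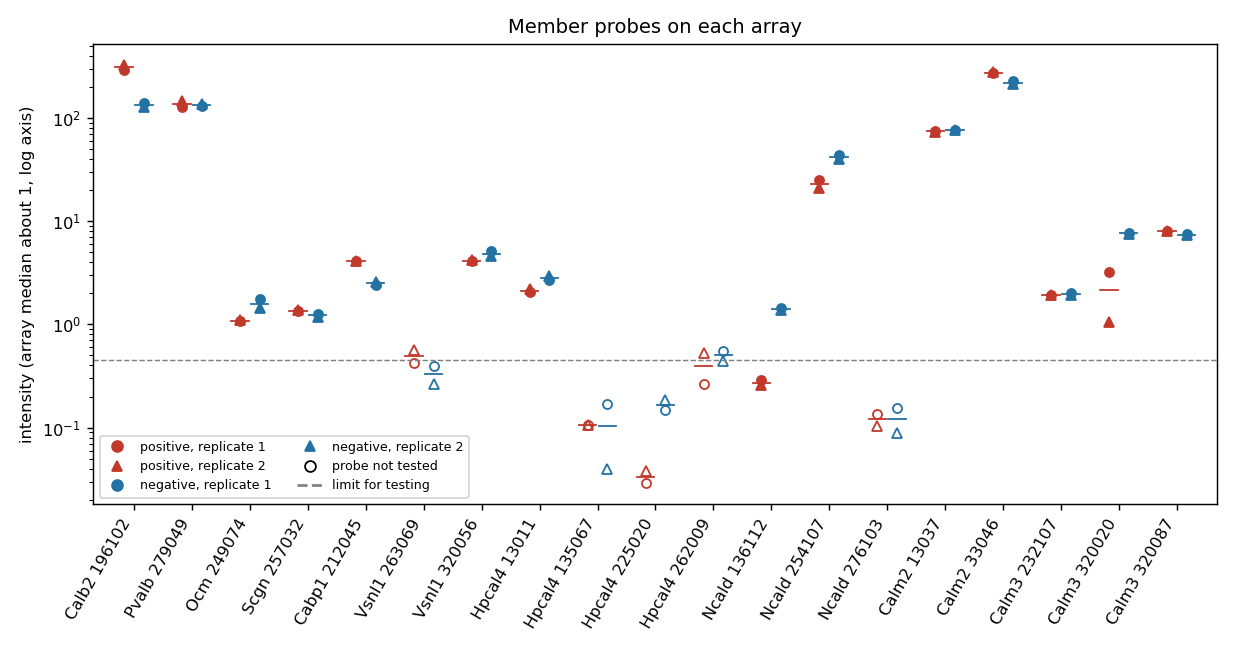
Intensity (log axis, array median about 1) of the 19 member probes on each array, labelled by gene and probe ID; red, positive arrays; blue, negative arrays; short lines, group means; open symbols, the 5 probes not tested; dashed line, the limit for testing at 0.456. For the 14 tested probes the colours are apart except at Pvalb, and the 2 positive arrays are far apart from each other at Calm3 probe 320020.

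Among the buffers, calretinin came first as the check of the labels. Calb2 had intensities of 291 and 327.6 on the positive arrays and 138 and 129 on the negative arrays. Both positive arrays lay above both negative ones, by a log2 difference of 1.21 ± 0.08 (SE, 2 arrays a group; adjusted p = 1.78e-06, limma). The direction is that of the titles, and it held with quantile (0.96) and loess normalization (0.91). It rests on the shifted reading of late names: at its own ID the probe gave -1.08. Of all tested probes, 40.6% were called higher, so the direction alone is a weak check. Both negative arrays gave Calb2 intensities far over the limit for testing, so the negative label does not mean absence of signal at this probe. Where that signal came from was not tested.

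Parvalbumin, Pvalb, a fast buffer of many rapidly firing neurons, had 128 and 147 on the positive arrays and 131 and 135 on the negative ones. The positive arrays bracketed the negative ones, and the log2 change was 0.04 with a 95% interval of -0.15 to 0.23 (adjusted p = 0.691, limma). Quantile and loess normalization turned it to -0.21 (adjusted p = 0.0309, limma) and -0.24 (adjusted p = 0.0210), past the threshold. Whether Pvalb differs thus depends on the scaling, and in every reading the difference was small beside that of Calb2.

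Oncomodulin, Ocm, the parvalbumin relative known from hair cells, was dim. Its intensities were 1.07 and 1.11 on the positive and 1.76 and 1.43 on the negative arrays, all near the array median. Both positive arrays were below both negative ones, at a log2 difference of -0.54 ± 0.13 (SE; adjusted p = 0.00496, limma), or -0.65 relative to the median of all tested probes. Secretagogin, Scgn, a sensor of neuroendocrine cells and some neurons, was as close to the median probe. It had 1.34 and 1.38 on the positive and 1.27 and 1.19 on the negative arrays. The groups did not overlap, but the log2 change of 0.15 had a 95% interval of -0.11 to 0.41 and did not pass (adjusted p = 0.280, limma).

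Cabp1 encodes a neuronal calmodulin-like sensor, with the splice form caldendrin, that binds voltage-gated calcium channels and inositol trisphosphate receptors. Its readable probe had 4.14 and 4.13 on the positive arrays and 2.43 and 2.58 on the negative ones. The replicates were close and the groups far apart, with a log2 difference of 0.72 ± 0.08 (SE; adjusted p = 2.59e-05, limma), a 1.65-fold higher level in the positive arrays. It was 0.70 with quantile and 0.64 with loess normalization. Apart from Calb2 it was the member gene that stayed higher under both.

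The visinin-like and neurocalcin sensors carry a fatty acid tail that calcium binding exposes, which lets them move to membranes. Ncald, neurocalcin delta, was measured by 3 probes. The brightest had 24.99 and 21.1 on the positive and 43.7 and 39.8 on the negative arrays. All negative values were above all positive ones, and the log2 change was -0.86 ± 0.09 (SE; adjusted p = 2.77e-05, limma), or 1.82-fold lower in the positive arrays. A separate early probe, whose name needs no shift, had 0.290 and 0.258 on the positive and 1.46 and 1.38 on the negative arrays. It was called lower (adjusted p = 6.15e-06, limma), but its positive arrays were under the limit for testing. It passed the filter only through the negative arrays, so no fold is given and the call is no support for the brightest probe. The third probe, at 0.0878 to 0.155 on all arrays, was too dim to test.

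Hpcal4, which encodes visinin-like protein 2, was represented by an early probe. Its intensities were 2.07 and 2.19 on the positive and 2.67 and 2.97 on the negative arrays. The groups did not overlap, and the log2 change was -0.40 ± 0.09 (SE; adjusted p = 0.00301, limma), -0.51 relative to the median of tested probes. The other 3 Hpcal4 probes were too dim to test, at 0.0291 to 0.556. One of them, probe 225020, was lower on both positive arrays (0.0291 and 0.0377) than on both negative ones (0.148 and 0.185), and the remaining pair overlapped between groups.

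Vsnl1 encodes visinin-like protein 1. Its brighter probe, in ID row 320, had 4.09 and 4.17 on the positive arrays and 5.14 and 4.57 on the negative ones. The negative arrays were higher but apart from each other, and the log2 change was -0.23 ± 0.08 (SE; adjusted p = 0.0272, limma). The call was lost without the first positive array (adjusted p = 0.0722, limma), without the first negative array (0.188) and with a variance prior without a trend (0.0694). The dimmer Vsnl1 probe lay around the limit, with 0.421 and 0.567 on the positive and 0.391 and 0.264 on the negative arrays. Its order was the opposite one, positive above negative, and it was not tested.

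Calm2 and Calm3 encode the same calmodulin protein from separate genes. Calm2 had a pair of early probes, both annotated to the same RefSeq transcript. The brighter had 271 and 281 on the positive and 227 and 212 on the negative arrays. The positive arrays were higher, by a log2 difference of 0.33 ± 0.08 (SE; adjusted p = 0.00374, limma). The other Calm2 probe had 75.4 and 73.9 against 76.6 and 76.5, a log2 change of -0.04 (95% interval -0.19 to 0.11; adjusted p = 0.654, limma). The probes of this gene therefore did not give the same answer. With quantile and loess normalization the brighter fell to 0.11 (adjusted p = 0.178, limma) and 0.03 (0.741), and the other became lower, at -0.30 (0.00272) and -0.29 (0.00344). No direction common to both Calm2 probes was found on any of the 3 scales.

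Calm3 had 3 late probes, which disagreed. The brightest in the reading by table rows, probe 320087, had 8.01 and 8.03 on the positive and 7.52 and 7.34 on the negative arrays. The groups did not overlap, but the log2 change of 0.11 (95% interval -0.04 to 0.26) did not pass (adjusted p = 0.169, limma). Probe 320020 had 3.25 and 1.06 against 7.67 and 7.57, and was lower at -2.04 ± 0.38 (SE; adjusted p = 0.00111, limma). On the log scale its positive arrays differed from each other more than the higher of them did from the negative arrays. Probe 232107 had 1.93 and 1.92 against 2.04 and 1.95 by table rows, a change of -0.05 that did not pass (adjusted p = 0.655, limma). Read 5 array positions later, as the control rows place it, it had 146 and 143 against 121 and 128. In that reading it is the brightest Calm3 probe and was higher in the positive arrays by 0.22 ± 0.07 (SE; adjusted p = 0.0225, limma), which makes 4 member genes higher and 4 lower. With quantile and loess normalization it was -0.06 in both, and not called. The deposited values thus give no single direction for Calm3.

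**Figure D3:**
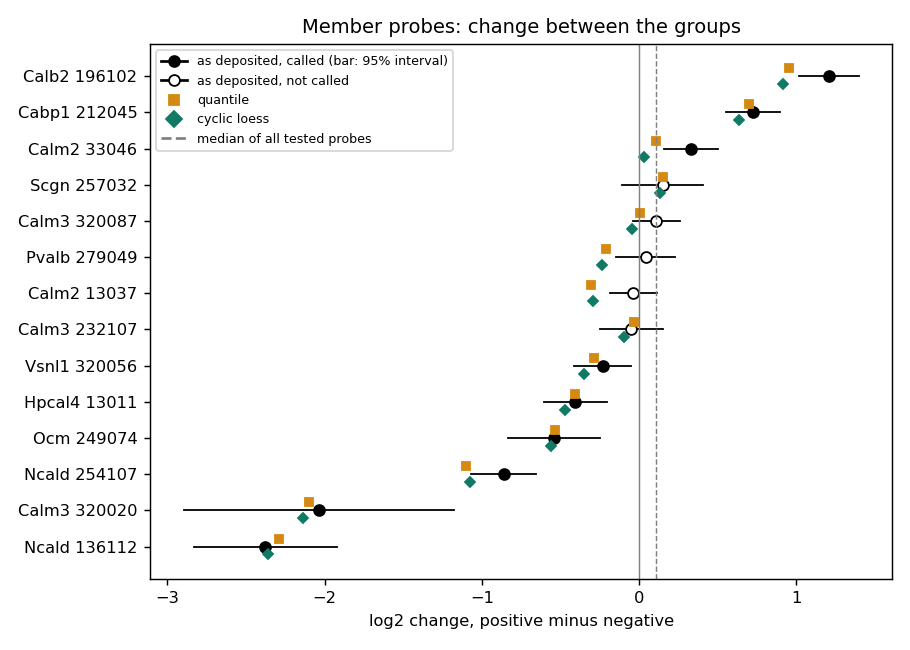
Log2 change (positive minus negative) of the 14 tested member probes; circles, values as deposited, filled where the adjusted p is under 0.05, with 95% intervals; squares, quantile and diamonds, cyclic loess normalization; dashed line, the median of all tested probes at 0.11. Calb2 and Cabp1 lie to the right and Ncald, Ocm and Hpcal4 to the left of 0 on all 3 scales, whereas Pvalb and the probes of Calm2 shift across or towards 0 or away from it.

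The 5 genes whose pattern over the 4 arrays was most like that of Calb2, by Euclidean distance between centred log2 values among 2617 bright named probes, were Kcnk2, Fastkd2, Sh3bgr, Mrs2 and Wbp1l. Kcnk2, a two-pore-domain potassium channel gene, was at a distance of 0.0405, with 33.1 and 36.9 on the positive and 16.1 and 14.4 on the negative arrays. Wbp1l, the fifth, was at 0.101. Likeness over 4 arrays in 2 groups is mostly likeness of the group difference, and the log2 changes of these 5 lay between 1.19 and 1.27.

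Other genes of calcium signalling were described from lists, each gene by its brightest probe whose name had 1 reading. Among all named genes taken so, 66.6% passed, 45.1% higher and 21.5% lower. Of 38 other EF-hand genes, 23 had a readable probe and 12 were tested. Of these, 6 were higher in the positive arrays, 1 was lower and 5 did not pass, so that 58.3% were called. Their median log2 change was 0.19, against 0.11 over all tested probes. With quantile or loess normalization 3 were higher and 2 lower. Calml4, a calmodulin-like gene, was at 19.9 ± 0.125 (SD, n = 2) against 2.69 ± 0.00919, a log2 change of 2.88 (adjusted p = 2.67e-09, limma). Sdf4, which encodes an EF-hand protein of the Golgi lumen, was higher by 0.90, and Efhd2 by 0.73. Kcnip1, a sensor that joins A-type potassium channels, was lower, with 2.77 ± 0.233 against 5.12 ± 0.345 and a log2 change of -0.89 (adjusted p = 1.66e-05, limma). Calu, Rcn3 and Nucb1, which encode proteins of the secretory pathway, were higher as deposited and not called on the other scales.

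Among 27 targets and partners of calmodulin, 15 were tested: 8 were higher, 2 lower and 5 did not pass (66.7% called, median 0.20). With quantile or loess normalization 3 were higher and 3 lower. The kinase gene Camk1 was at 2.88 ± 0.0144 (SD, n = 2) against 1.19 ± 0.0728, a log2 change of 1.27 (adjusted p = 2.76e-06, limma). Camkk1, which encodes a kinase that acts on it, was higher by 0.53. The Camkk1 probe lies past the last control row, so its name is less firmly placed. Rcan2, a calcineurin regulator gene, was higher by 0.34 as deposited and not called with quantile (0.05) or loess (0.09). Pcp4, a small calmodulin-binding protein gene, was lower at 157 ± 12.3 against 216 ± 4.88, at -0.47 in log2 (adjusted p = 6.22e-04, limma). Ppp3ca, the calcineurin catalytic subunit gene, was lower by -0.23 (adjusted p = 0.0348).

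Of 28 genes for pumps, exchangers and stores, 18 were tested: 10 were higher, 5 lower and 3 did not pass (83.3% called, median 0.25). With quantile normalization 8 were higher and 6 lower, and with loess 7 and 6. The plasma membrane pump gene Atp2b3 was at 3.09 ± 0.192 (SD, n = 2) against 0.865 ± 0.0176, a log2 change of 1.83 (adjusted p = 4.28e-07, limma). Slc24a3, a potassium-dependent sodium-calcium exchanger gene, was at 208 ± 1.40 against 86.2 ± 9.12 (1.27). The Slc24a3 probe lies past the last control row, so its name is less firmly placed. Itpr2, an inositol trisphosphate receptor gene, was higher by 1.57. The lower genes included Slc8a1 (-0.72), a sodium-calcium exchanger gene, Itpr3 (-0.57), another inositol trisphosphate receptor gene, and Casq1 (-0.61), which encodes a store buffer of muscle.

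Many markers of other cell types differed between the groups, to unequal degrees and not all in the same direction. The marker counts stand beside the share over all named genes, of which 45.1% were higher and 21.5% lower. Among oligodendrocyte markers 5 of 6 tested genes were lower and 0 higher, with an intensity summed over the list's genes of 201 to 203 on the positive and 341 to 346 on the negative arrays. Of the 10 read, Mag, Opalin and Olig2 were below the limit for testing in both groups. Mog was at 1.0001 against 42.9 and Mobp at 1.90 against 76.6. Astrocyte markers gave 5 of 6 lower and 1 higher (summed 432 to 472 against 568 to 591), with Aqp4 at 0.473 against 50.1 and Gfap at 1.04 against 44.5. The higher gene was Gjb6, at 185 against 126. Schwann and satellite glia markers gave 5 of 7 lower and 0 higher (127 to 137 against 288 to 303), with Lgi4 at 0.900 against 25.5 and Mbp at 1.55 against 13.4. On the positive arrays Mog, Gfap and Lgi4 were thus near the median probe. Aqp4 was just under the limit for testing there and passed the filter only through the negative arrays. Other genes of the same lists, named after their values were seen, were bright in both groups. Cldn11, at 185 against 194, made up most of the oligodendrocyte sum and was not called as deposited. Slc1a3 was at 128 against 147 and Prx at 107 against 199. The Slc1a3 probe lies past the last control row, so its name is less firmly placed.

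Endothelial and mural markers were lower in 5 of 6 and higher in 0 (summed 19.9 to 20.0 against 47.9 to 49.3), with Pecam1 (-1.92) and Tek (-1.48). Blood and immune markers were lower in 5 of 6 and higher in 1 (66.9 to 71.6 against 151 to 162), with C1qa (-2.04) and Alas2 (-1.34). Hair cell markers, given beside Ocm, were mostly dim: 6 of the 9 read were below the limit for testing in both groups. Of the 3 tested, 2 were lower and 0 higher (summed 9.39 to 9.73 against 15.4 to 15.6). Cdh23, at 0.143 against 4.02, passed the filter only through the negative arrays, and Ush1c changed by -0.41. Cerebellar and brainstem neuron markers were lower in 2 of 6 and higher in 1 (40.1 to 41.5 against 48.0 to 50.4). Gabra6, at 0.159 against 2.49, was under the limit on the positive arrays and passed the filter only through the negative ones. Cbln1 was at 2.88 against 11.9. Grm4 went the other way, at 9.97 against 4.67, and the remaining 3 tested did not pass. Meningeal and fibroblast markers went mostly the other way, 5 of 8 higher and 2 lower (834 to 849 against 579.5 to 665). Moxd1 changed by 2.85 and Upk1b by 2.64. Dcn (-0.97) and Col1a1 (-0.24) were the lower genes, and Col1a2 (0.05) did not pass. Ptgds, at 614 against 486, was the brightest of the list and was not called with loess normalization. Msln passed the filter only through the positive arrays.

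Peripheral neuron markers gave a sum of 758 to 773 on the positive and 738 to 743 on the negative arrays. Most of this came from Thy1 (343 against 326) and Uchl1 (196 against 167), named after their values were seen. Of 9 tested, 5 were higher and 3 lower. With quantile or loess normalization 2 were higher and 4 lower. Of the listed neuron genes, Snap25 (0.0641 against 0.0984) and Pou4f1 (0.317 against 0.321) were below the limit for testing in both groups. Prph, peripherin, was at 54.6 against 110.2 and Ntrk2, the BDNF receptor gene, at 9.18 against 19.9. The neurofilament genes Nefh (3.87 against 1.26) and Nefm (101.8 against 68.3), named after their values were seen, were higher. In pooled captured cells, fewer cells of a type and less RNA per cell cannot be told apart. The part of the glial, vascular and meningeal markers in the changes of Ncald, Hpcal4, Vsnl1, Ocm, Cabp1 and Calm2 was not tested.

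**Figure D4:**
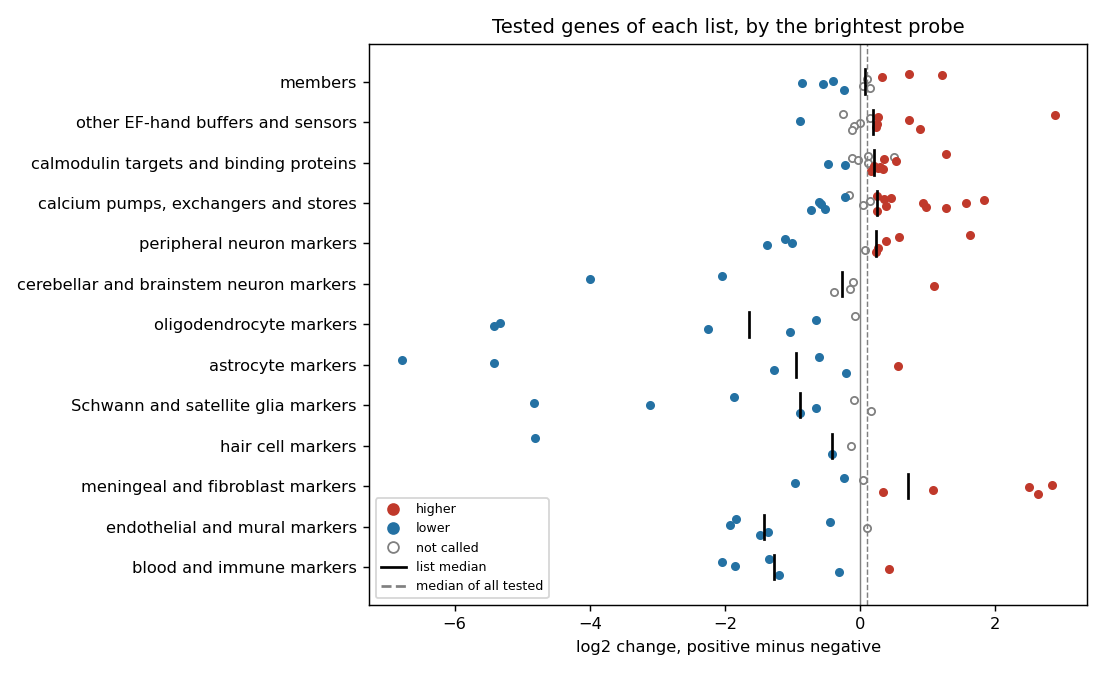
Log2 change (positive minus negative) of every tested gene of each list by its brightest probe; red, higher; blue, lower; open, not called; black bars, list medians; dashed line, the median of all tested probes at 0.11. The medians of the members and the calcium lists sit close to 0 with genes on both sides, reaching 2.88 at Calml4. Oligodendrocyte, astrocyte and Schwann cell markers extend to changes of -3 and beyond, as do Cdh23 of the hair cell and Gabra6 of the cerebellar list.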

How the data were processed

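The authors deposited 1 table of linear probe intensities for the 4 arrays (35126 probes). The values were taken as already median-scaled by the authors. How they were scanned and background-corrected, and any further normalization, is not stated per the labels. Array medians were near 0.99. Entries of -9999 (10 to 39 an array) were read as missing. Missing values and values below the 1st percentile of the positive values of an array were raised to it before log2. Probes with a mean log2 below the 40th percentile were left out, which left 21070. Groups were compared with limma 3.58.1 in R 4.3.3 (lmFit, then eBayes with a trend; two-sided tests). P-values were adjusted over all tested probes by Benjamini-Hochberg, with a threshold of 0.05. The method was tested on simulated data. Names came from the platform annotation, updated by gene ID: 16649 of 16677 probes with 1 symbol matched, 163 had several symbols and 18286 none. Late names were read 5 table rows later; for the lists, the 574 of 7218 late names that array position would place elsewhere were left out. A gene is represented by its brightest probe. All members are named; of each calcium list, the 3 genes of smallest p in each direction among those called, of each marker list 2 genes, and the 5 genes most like Calb2. Members and lists were chosen with earlier results of these data known. Mean ± SD is over 2 arrays. Alternatives covered scaling, filter, floor, variance prior, replicate block, left-out arrays, naming and averaging of probes.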

Additional observations from a re-analysis of the deposited data

How the results depend on the processing

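Over 14 settings that kept names and probes, 126 of 138 values of the 10 member genes stayed on the same side of the threshold, with no called value changing sign. Pvalb reversed with quantile (-0.21) and cyclic loess (-0.24) normalization. The counts of member genes below stand beside 66.6% of all named genes that passed in the main fit, 45.1% higher and 21.5% lower. With each probe on its own spread, 33.6% of all tested probes passed. Shares over all named genes under the other settings are not given here. Leaving out probes below the 60th percentile gave 3153 lower probes, since fewer were tested. With no pooling of variance across probes there were 7082 calls (4492 higher, 2590 lower) and 2 member genes passed, 0 of them lower. Dropping each array in turn gave 12262 to 12764 called probes, of which 7809 to 8059 were higher and 4311 to 4776 lower, and 6 to 7 member genes, 3 higher and 3 to 4 lower; the array left alone is assumed to have the spread of the other group. With all names at their own ID, 5 member genes were higher and 1 lower, and Calb2 (-1.08), Vsnl1 (0.41), Hpcal4 (0.53) and Ncald (0.41) reversed. With early names only, 3 member genes passed (1 higher, 2 lower), since fewer members have a probe. The lower genes were then Hpcal4 and Ncald. Ncald was read by probe 136112, which passed the filter only through the negative arrays, so its call there is no support. The mean of all probes of a gene reversed Vsnl1 (0.19) and Calm3 (-0.66), whose probes disagree; 5 member genes then passed (2 higher, 3 lower), Calm2 lost its call (0.15, adjusted p = 0.0648, limma) and Hpcal4 was too dim to test. Chosen after seeing the data, names read 5 array positions later gave 8 member genes (4 higher, 4 lower), leaving out probes past the last control row gave 6 (3 and 3), and missing values left missing gave 7. The replicate block gave 13711 called probes and 7 member genes. Deviations of arrays that share a number were uncorrelated (r = 0.000556 over 21070 probes), which gives no sign of pairing, and the block changed no call of a member gene. For the scaling and variance settings the cause was not tested.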
